A study of Homo sapiens with 4 samples.

Results

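The BCL2 family was followed through a pull-out of RNA bound to the microRNA miR-26a, with MCL1, a published target of miR-26, and 9 further members (BCL2, BCL2L1, BAX, BAK1, BID, BAD, BCL2L11, BBC3 and PMAIP1). The 10 genes were found by matching the RefSeq accession of each table row to these symbols. They accounted for 49 of 53209 transcript rows per library and for 10 of 25688 genes or unnamed transcripts. All libraries came from DU-145, an established human prostate carcinoma line that grows without androgen, transfected 24 h after seeding with 60 nM of a miR-26a duplex. In 2 biotin libraries the duplexes carried biotin at their 3′ end and a thiouridine, a uridine analogue that crosslinks under long-wave light, at nucleotide 7 in one duplex and nucleotide 17 in the other. In 2 control libraries the duplex had neither. Cells of both groups were irradiated at 365 nm (2 J/cm2), their RNA was held on streptavidin beads for 4 h, and what stayed on the beads was sequenced. Every group thus held extra miR-26a, no group was left without it, and biotin and thiouridine were never separated. The design names 2 biological replicates per group.

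Proteins of the BCL2 family decide whether the outer membrane of mitochondria is opened, the committing step of intrinsic apoptosis. BAX and BAK1 form the pore, the anti-apoptotic proteins BCL2, BCL-xL (from BCL2L1) and MCL1 hold them in check, and the BH3-only proteins BID, BAD, BIM (BCL2L11), PUMA (BBC3) and NOXA (PMAIP1) neutralise the protectors or activate the pore formers. MCL1 is short-lived as mRNA and as protein, and NOXA binds it preferentially. A microRNA recognises mRNAs chiefly through its seed, nucleotides 2 to 8, by pairing with sites in the 3′ UTR.

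The sequences below show what the comparison turned on, the bait and the matches to its seed in the family. In the mature miR-26a-5p of RefSeq (GRCh38.p14), which is encoded at chr3:37969413-37969434 on the plus strand and at chr12:57824658-57824679 on the minus strand, capitals mark the seed, and nucleotides 7 and 17, the thiouridine positions, are both U.
miR-26a-5p: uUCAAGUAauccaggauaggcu
The reverse complement of the seed, TACTTGA, was searched on the sense strand of the longest 3′ UTR of each gene in GENCODE 29 (GRCh38, the build of the tables). It occurred once in MCL1, BAK1, BID and PMAIP1. In the last 3 genes an A follows it, the 8-base site TACTTGAA. Capitals mark the match in the windows, which lie at chr1:150576755-150576779 (minus strand), chr6:33572760-33572785 (minus), chr22:17735380-17735405 (minus) and chr18:59904050-59904075 (plus).
MCL1: tttatcaccaataaTACTTGAcgga
BAK1: gggggaactgtgaaTACTTGAActct
BID: tatctacattaataTACTTGAAtgaa
PMAIP1: aagagtcttataacTACTTGAAtttt
The searched 3′ UTRs were 2824 bases long in MCL1, 1450 in BAK1, 1442 in BID and 1553 in PMAIP1. Of 9354 tested genes with a 3′ UTR, 14.3% held TACTTGA. Among tested genes with a 3′ UTR of similar length, 22.6% held it at the length of MCL1, 10.3% at that of BAK1, 10.1% at that of BID and 11.8% at that of PMAIP1. BCL2L1, BAX, BAD, BCL2L11 and BBC3 had no such match in any of their 3′ UTRs, and BCL2 had it only in that of a shorter isoform. The 6-base core ACTTGA without the flanking bases occurred once more each in MCL1 and PMAIP1 and once each in BCL2, BAX and BCL2L11.

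Expression is given in FPKM, a fragment count divided by transcript length and library size, summed over the rows of a gene. The ratio of deposited coverage to FPKM put the mapped reads at about 17570000 and 23640000 for biotin, against 16030000 and 17830000 for control. Biotin and control were compared by limma on log2(FPKM + 1) over the 9903 genes that reached 1 FPKM in 2 or more libraries. At a Benjamini-Hochberg adjusted p of 0.05, 1302 genes (13.1%) were higher in biotin and 920 (9.29%) lower. Increases thus made up 58.6% of the calls, against 47.0% with upper-quartile scaling, 66.3% with median-of-ratios scaling and 73.9% with no filter on low values. The median log2 fold change of all tested genes was -0.06. With 2 libraries a group an exact permutation test of a single gene cannot go below p = 0.333, so each call rests on the spread that limma pools across genes. All 10 epithelial markers of DU-145 had at least 1 FPKM in every library (summed, 281.7 and 305.8 in biotin against 255.3 and 302.6 in control), of which 2 were called higher and 0 lower (limma; 0 lower also at an unadjusted p below 0.05). The prostate secretory genes KLK3 and KLK2 were listed at 0 throughout, as were the blood cell genes PTPRC, CD3E and HBB. In pulled-out RNA, a higher share recovered and a higher level in the cells cannot be told apart.

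Of the 3 anti-apoptotic genes, MCL1 and BCL2L1 rose and BCL2 was too low to test. MCL1 stood at 84.85 and 130.6 FPKM in the biotin libraries and at 46.46 and 60.17 FPKM in the controls. Both biotin libraries lay above both controls, and replicate 2 was the higher one in each group. The log2 fold change was 0.98 ± 0.27 (SE), about 1.97-fold on the FPKM + 1 scale, with an adjusted p of 0.0490 (limma), just inside the threshold. Its 95% interval ran from 0.32 to 1.64, and 7.89% of tested genes had a larger increase. These values rested on an estimated 6004 and 12402 reads in biotin and 2973 and 4377 in control. The call did not survive the removal of any 1 of the 4 libraries, with changes between 0.67 and 1.29 and adjusted p between 0.0513 and 0.208 (limma).

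BCL2L1, which encodes the protector BCL-xL, had a larger point estimate than MCL1, and none of its searched 3′ UTRs held the seed match. It was at 97.53 and 66.5 FPKM in the biotin libraries against 25.82 and 27.16 FPKM in the controls. The controls lay close together, and the lower biotin library was still far above them. The log2 fold change of 1.57 ± 0.24 (95% interval 1.00 to 2.14) corresponded to 2.97-fold, with an adjusted p of 0.00837 (limma), and 3.25% of tested genes rose more. Without control replicate 1 or 2 the adjusted p was 0.0846 and 0.0807 (limma), and without biotin replicate 1 or 2 it was 0.0341 and 0.0143. The difference between the changes of MCL1 and BCL2L1 was not tested, and their intervals overlapped. Within the family, BCL2L1 ranked above MCL1 in biotin replicate 1 only, where the ratio of MCL1 to BCL2L1 FPKM was 0.87. It was 1.96 in biotin replicate 2, and 1.80 and 2.22 in the controls, so this ratio overlapped between groups. The antisense RNA ABALON shares 1424 bases with BCL2L1 exons in GENCODE 29 and was not analysed here. The strand setting of the counting is not given in the sources used here, so reads of such a partner cannot be told from those of the gene.

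BCL2 itself was at the limit of detection. It was listed at 0 in both biotin libraries and at 0.162 and 0.278 FPKM in the controls, from an estimated 2.8 and 6.3 reads. It stayed below the filter and has no test. MCL1 and BCL2L1 together made up 76.1% and 80.5% of the summed FPKM of the 10 genes in biotin, against 53.7% and 58.6% in control.

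**Figure D1:**
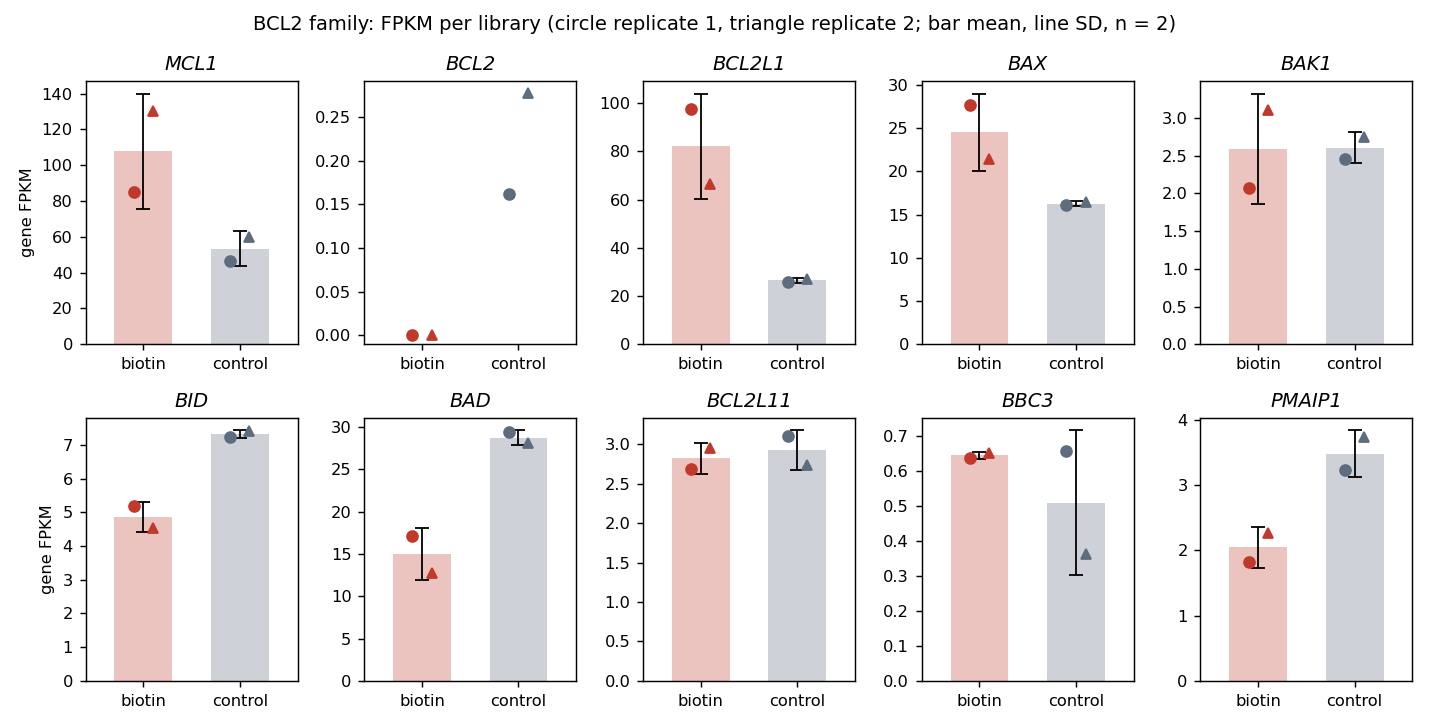
Gene FPKM of the 10 family members in each library, biotin left and control right in every panel (circles replicate 1, triangles replicate 2, bars the mean, lines the SD, n = 2; each panel has its own axis, and BCL2 has points only because 2 libraries are listed at 0). Both biotin points lie above both controls for MCL1, BCL2L1 and BAX and below them for BID, BAD and PMAIP1.

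MCL1 and BCL2L1 are spliced into forms of opposite activity, and the tables hold a row for each form. Skipping of the middle MCL1 exon, 248 bases at chr1:150578244-150578491, gives a short protein that promotes apoptosis, and an alternative splice site 189 bases upstream turns BCL-xL into the pro-apoptotic BCL-xS. The junctions below, from GENCODE 29 transcripts, show where the forms part, and capitals mark the exon after the junction.
MCL1 long: agacggccttccaagGCATGCTTCGGAAAC
MCL1 short: agacggccttccaagGATGGGTTTGTGGAG
BCL2L1 long: gagaacggcggctggGATACTTTTGTGGAA
BCL2L1 short: cagagctttgaacagGATACTTTTGTGGAA
The long MCL1 transcript (NM_021960) was listed at 68.4 and 100.5 FPKM in biotin and at 30.1 and 60.17 FPKM in control. The short one (NM_182763) was listed at 16.44 and 30.04 FPKM in biotin, and at 16.36 and 0 FPKM in control. The short form therefore took 19.4% and 23.0% of MCL1 FPKM in biotin against 35.2% and 0% in control, a share whose groups overlapped. The third MCL1 row was listed at 0 in every library. All BCL2L1 signal was assigned to the long form (NM_138578), and the BCL-xS row was listed at 0 in each library with an upper Cufflinks bound of at most 0.0756 FPKM. The short MCL1 row at 0 in control replicate 2 had an upper bound of 0.0174 FPKM, beside 16.36 FPKM in control replicate 1. A row listed at 0 therefore does not show that the form was absent.

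**Figure D2:**
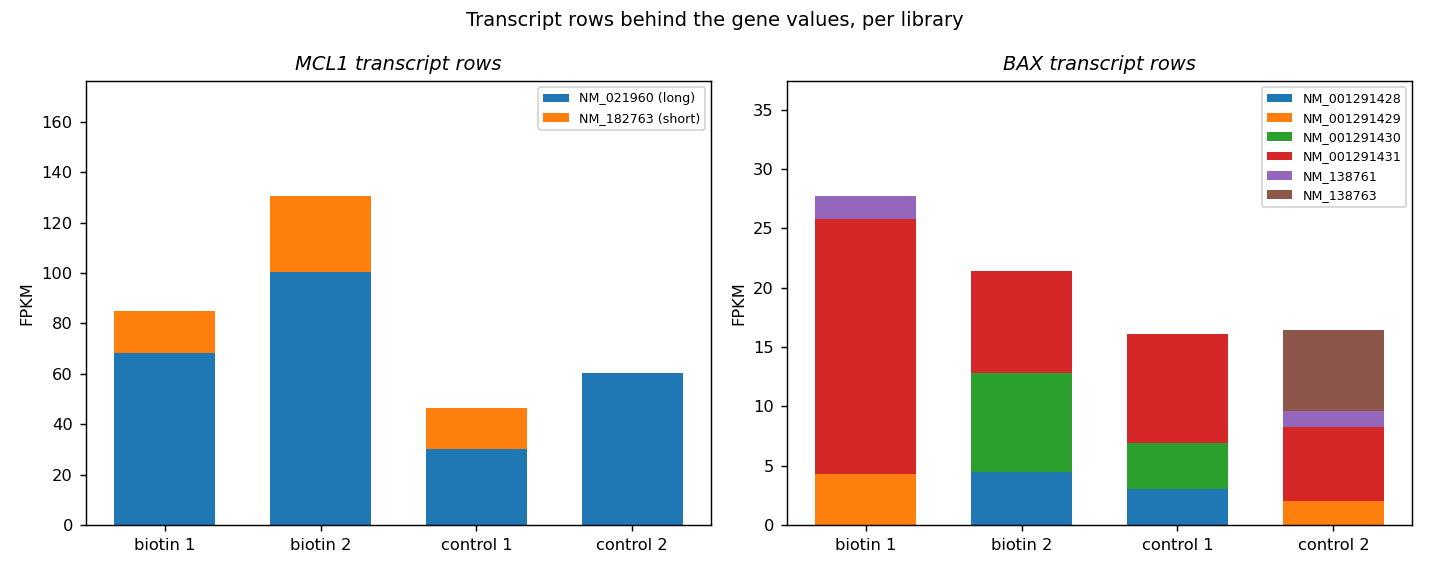
FPKM of the transcript rows that were above 0 in any library, stacked per library for MCL1 (left) and BAX (right), biotin libraries before controls. The short MCL1 row is absent from control replicate 2, and only NM_001291431 of BAX is present in all 4 libraries.

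Tested as single rows, with 11980 transcripts in the fit, 12 member transcripts of 7 genes passed the filter and 0 were called (limma). Of all tested transcripts 3.92% were called, 2.76% higher and 1.16% lower. At an unadjusted p below 0.05, 1 was up and 3 were down. The lowest adjusted p was that of BCL2L1 NM_138578 (0.0662, log2 fold change 1.57 ± 0.24), while MCL1 NM_021960 had 0.94 ± 0.44 and an adjusted p of 0.283 (limma). For MCL1 the standard error was thus larger for the row than for the gene sum.

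Neither pore former passed the test. BAX was at 27.71 and 21.41 FPKM in biotin and at 16.11 and 16.45 FPKM in control. The groups did not overlap, yet the log2 fold change of 0.55 ± 0.19 missed the threshold (adjusted p = 0.0857, limma). DU-145 cells are known to make no BAX protein, so its RNA marks the transcript and not the protein. Of 9 BAX rows, 6 were above 0 somewhere and 1, NM_001291431, in all 4 libraries (21.55 and 8.65 FPKM in biotin, 9.24 and 6.23 FPKM in control). BAK1 was at 2.08 and 3.11 FPKM in biotin and at 2.46 and 2.76 FPKM in control, with the controls between the biotin libraries. Its log2 fold change was -0.02 ± 0.18 with an interval from -0.46 to 0.42 (adjusted p = 0.949, limma), although its 3′ UTR holds the 8-base site. BAK1 also has processed pseudogenes, BAK1P1 and BAK1P2, to which some of its reads could belong.

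Of the BH3-only genes, BAD and PMAIP1 fell. BAD, whose protein binds BCL-xL and BCL2 when survival signals are withdrawn, was at 17.12 and 12.78 FPKM in biotin and at 29.34 and 28.07 FPKM in control. The groups were well apart, and the log2 fold change was -0.91 ± 0.20 (adjusted p = 0.0261, limma). A lower value was found in 3.49% of tested genes. The protein-coding gene GPR137 runs antisense to BAD and shares 404 of its 1708 exonic bases. GPR137 stood at 35.4 and 39.1 FPKM in biotin and at 12.1 and 17.0 FPKM in control, the opposite direction, and its part in the BAD values was not tested. Leaving out biotin replicate 2 took BAD to -0.71 with an adjusted p of 0.113, and leaving out control replicate 1 or 2 gave 0.126 and 0.121 (limma).

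PMAIP1 encodes NOXA, the BH3-only partner of MCL1, and moved the other way from MCL1. It was at 1.83 and 2.27 FPKM in biotin and at 3.23 and 3.74 FPKM in control, on an estimated 62.3 and 104 reads against 101 and 130. The groups did not overlap. The log2 fold change was -0.56 ± 0.15 (adjusted p = 0.0473, limma), and the call was lost in each fit without a library (adjusted p 0.110 to 0.209). BID, which is cleaved by caspase-8 to link death receptors to mitochondria, was at 5.18 and 4.54 FPKM in biotin and at 7.24 and 7.40 FPKM in control. Its groups were apart as well, and its log2 fold change of -0.51 ± 0.15 just missed the threshold (adjusted p = 0.0563, limma). With upper-quartile scaling it passed (adjusted p = 0.0330). BCL2L11, the gene of BIM, was at 2.69 and 2.96 FPKM in biotin and at 3.10 and 2.75 FPKM in control (log2 fold change -0.04 ± 0.14, interval -0.38 to 0.31, adjusted p = 0.867, limma). Its signal was spread over 8 of 18 rows, with 1 above 0 in every library, and it shares 727 exonic bases with the antisense noncoding gene MIR4435-2HG. BBC3, the gene of PUMA, was below the filter at 0.637 and 0.6496 FPKM in biotin and 0.655 and 0.363 FPKM in control, and was not tested.

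Across the family 8 of 10 were tested, 2 rose (MCL1 and BCL2L1) and 2 fell (BAD and PMAIP1), beside 22.4% of all tested genes called in either direction. The groups did not overlap for 6 of the 8, 3 higher and 3 lower, beside 67.0% of all tested genes (29.3% higher and 37.7% lower), so separation by itself was common. The median log2 fold change of the 8 was -0.03, against -0.06 over all genes. Both calls upward were anti-apoptotic genes and both calls downward BH3-only genes. The anti-apoptotic members summed to 182.4 and 197.1 FPKM in biotin against 72.4 and 87.6 FPKM in control. The pore-forming and BH3-only members summed to 57.2 and 47.7 FPKM in biotin against 62.1 and 61.5 FPKM in control. The ratio of these sums was 3.19 and 4.13 in biotin and 1.17 and 1.42 in control. Its upper part consists of MCL1 and BCL2L1 alone but for the low BCL2 values in control. Its lower part is mostly BAX and BAD, which went in opposite directions. Their means were 24.56 and 14.95 FPKM in biotin against 16.28 and 28.7 FPKM in control. A few genes thus set the ratio. Both sums are of whole genes, so the anti-apoptotic sum includes the short MCL1 form, whose protein promotes apoptosis. That form was listed at 16.44 and 30.04 FPKM in biotin and at 16.36 and 0 FPKM in control. The other sum includes BAX RNA, although DU-145 cells are known to make no BAX protein.

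The seed match did not sort the members by direction. Of the 4 tested genes with the match, MCL1 was at 0.98 on the log2 scale, BAK1 at -0.02, BID at -0.51 and PMAIP1 at -0.56. Of the 4 without it, BCL2L1 was at 1.57, BAX at 0.55, BCL2L11 at -0.04 and BAD at -0.91. The ranges of the 2 sets overlapped, and with 4 genes each no test was made.

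**Figure D3:**
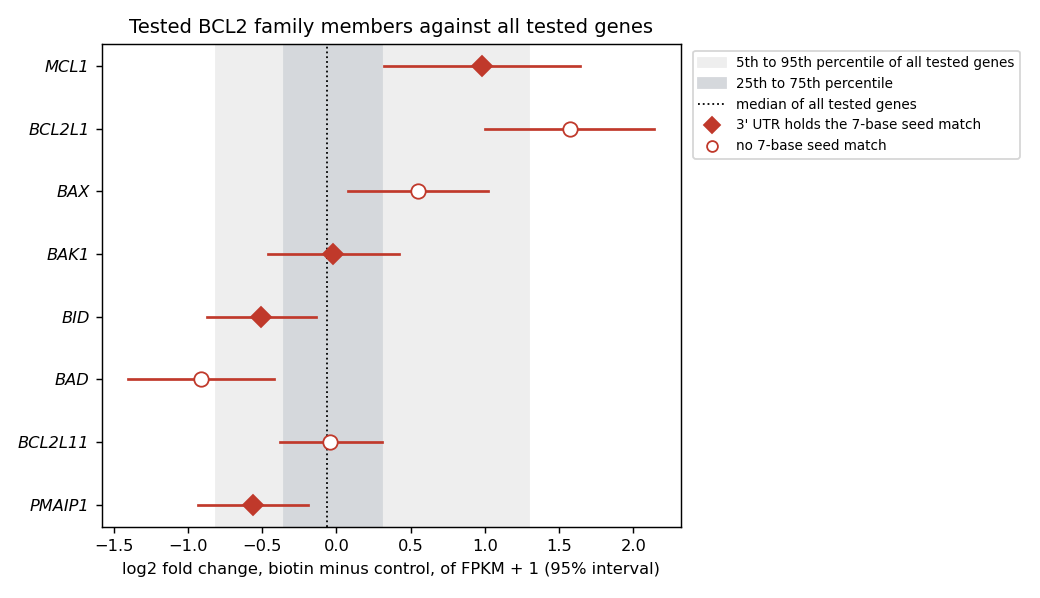
Log2 fold change of biotin minus control (FPKM + 1, points) with limma's 95% interval (lines) for the 8 tested members, over the spread of all tested genes (grey bands). Filled diamonds have TACTTGA in the 3′ UTR and open circles do not; MCL1 and BCL2L1 lie highest, and genes with and without the match occur on both sides of the median.

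Other genes of the pathway were taken from lists, whose counts stand beside 13.1% higher and 9.29% lower over all tested genes. Of 14 further family genes 8 were tested, 0 rose (limma; 1 at an unadjusted p below 0.05) and 2 of the 8 fell. These were BNIP3 and BNIP3L, whose proteins direct mitochondria to autophagy. BNIP3 was at 8.08 and 7.85 FPKM in biotin against 13.9 and 20.8 FPKM in control (-1.01 ± 0.22, adjusted p = 0.0256, limma). BNIP3L was at 11.5 and 12.2 FPKM in biotin against 22.5 and 22.1 FPKM in control (-0.86 ± 0.16, adjusted p = 0.0171, limma). The next largest change was that of the anti-apoptotic BCL2L2, at 2.28 and 2.16 FPKM in biotin and 1.07 and 1.46 FPKM in control, which did not pass (0.51 ± 0.15, adjusted p = 0.0582, limma). Of 20 genes of the apoptosome, caspases and mitochondrial death factors 19 were tested, 0 rose (limma; 0 at an unadjusted p below 0.05) and 3 fell, or 15.8% of those tested against 9.29% of all genes. VDAC2, a channel of the outer membrane that retains BAK1, was at 10.3 and 8.20 FPKM in biotin against 14.7 and 17.2 FPKM in control (-0.73 ± 0.19, adjusted p = 0.0404, limma). Its groups did not overlap. The nuclease gene ENDOG was listed at 0 in both biotin libraries and at 8.84 and 11.4 FPKM in control, and no fold is given.

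Of 12 genes that act on the stability of MCL1 or its relatives 10 were tested, 1 rose and 1 fell, 10.0% each and close to the shares of 13.1% higher and 9.29% lower over all genes. CDC20, an activator of the anaphase-promoting complex, which also targets MCL1 in mitosis, was at 154.8 and 108.8 FPKM in biotin against 66.5 and 75.7 FPKM in control (0.86 ± 0.24, adjusted p = 0.0483, limma). TPT1, whose protein binds and stabilises MCL1, was at 9.53 and 11.1 FPKM in biotin against 19.2 and 24.1 FPKM in control (-1.0 ± 0.19, adjusted p = 0.0181, limma). MARCHF5, a ubiquitin ligase of the mitochondrial membrane, had 0.50 ± 0.15 and did not pass (adjusted p = 0.0614, limma). Of 5 inhibitors of apoptosis, all tested, 1 rose (20.0%, against 13.1% of all genes), BIRC2, at 124.7 and 110.5 FPKM in biotin against 8.65 and 9.53 FPKM in control (3.55 ± 0.18, adjusted p = 0.000394, limma). Its protein ubiquitinates components of tumour necrosis factor signalling. BIRC5, which encodes survivin, had 0.73 ± 0.28 (adjusted p = 0.104, limma), and XIAP, the direct caspase inhibitor, 0.33 ± 0.15 (adjusted p = 0.166). The medians of these lists were -0.14 for the further family genes, -0.20 for the caspase list, -0.25 for the stability list and 0.33 for the inhibitors. Of the calls in these lists, BIRC2 and ENDOG held in all 4 fits without a library, and BNIP3, BNIP3L, VDAC2, CDC20 and TPT1 held in 0 of them.

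**Figure D4:**
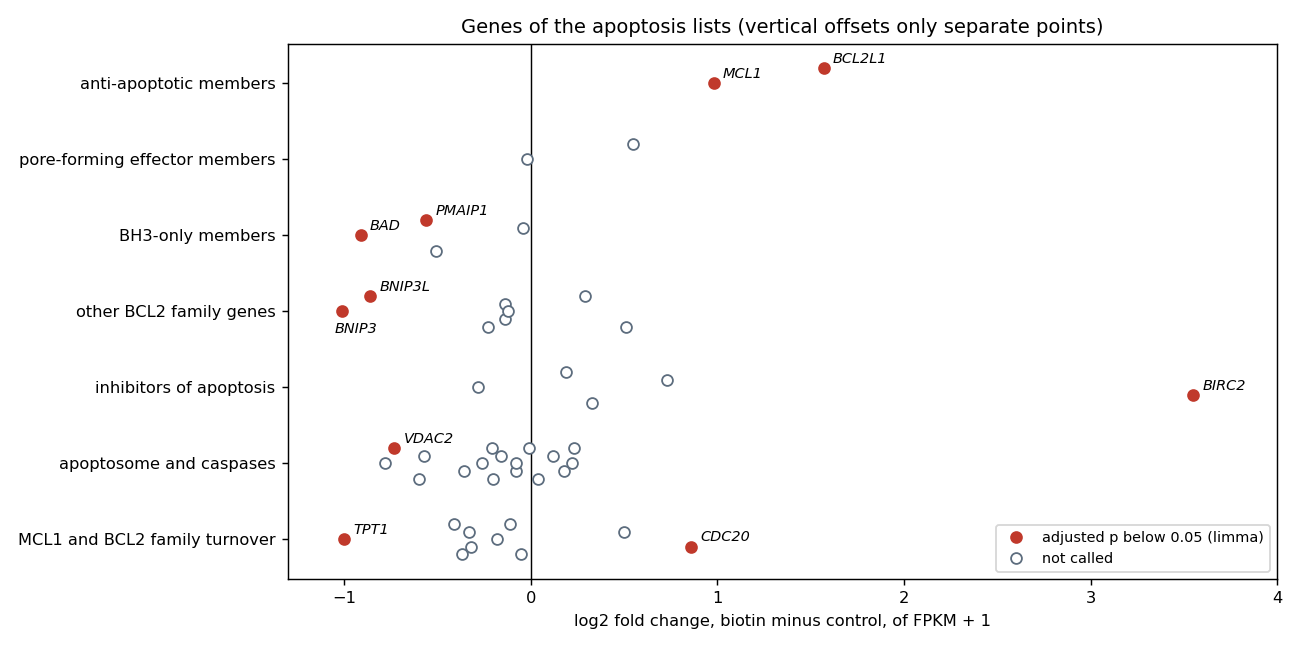
Log2 fold change of biotin minus control for the tested genes of the family and of the related lists, one row per list (filled points passed limma at an adjusted p of 0.05; ENDOG, listed at 0 in both biotin libraries, and 1 further gene of the caspase list are left out). BIRC2 at 3.55 lies farthest to the right, and the called BH3-only, BNIP3-type and caspase-list genes lie left of 0.

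The profile of MCL1 over the 4 libraries was set beside that of every tested gene, as the root-mean-square distance of log2(FPKM + 1) values centred per gene. Nearest were TFEB (0.045), NECTIN3 (0.052), MVK (0.066), TEX261 (0.067) and ABCA1 (0.069), with log2 fold changes between 0.92 and 1.03. TFEB was at 1.61 and 2.76 FPKM in biotin and at 0.407 and 0.897 FPKM in control. Its controls were below the 1 FPKM added before the logarithm, which shrinks the change of so low a gene. The TFEB means were 2.18 FPKM in biotin and 0.652 FPKM in control, beside 107.7 and 53.32 FPKM for MCL1. Within the family the nearest to MCL1 was BAX, at a distance of 0.422, with 1831 tested genes closer. BCL2L1 lay at 0.516 with 3184 closer. With 4 libraries such a likeness is a description.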

How the data were processed

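The submitters' processing notes name Cufflinks 2.1.1, Cuffdiff, TopHat2 2.0.9, cutadapt and FastQC 0.10.1, and the build hg38. How each was set, and with which transcript annotation and strand option, is not given in the sources used here. The authors deposited 1 Cufflinks table per library, and per the file headers its values are FPKM with confidence bounds. The deposited coverage signal served only to estimate depth and reads (read length 50 bases), and at these depths 3 reads on 1 kb correspond to 0.127 to 0.187 FPKM. This floor covers counting error only, and no raw counts were used. The printed 95% intervals are limma's and rest on the spread between libraries, moderated by the spread that limma pools across genes.

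Of 46699 accessions, 98.6% received a symbol from the RefSeq gene table (GRCh38.p14) or the RefSeq links of GENCODE 29. FPKM was summed per gene. Genes of short structured RNAs and genes with any row whose status was not OK were left out of the tests (39 genes that passed the filter had such a row, no member did). Groups came from the sample titles. limma 3.58.1 (R 4.3.3; lmFit, eBayes with trend, two-sided) was run on log2(FPKM + 1), with 2 residual and 4.2 prior degrees of freedom. The pseudocount of 1 understates changes of low genes. The procedure was tested on simulated data.

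Members, lists and tests were chosen with earlier results of these data known. The named genes were the 10 members, from each other list every called gene and at least 3 with the largest change, and the 5 genes most like MCL1. The alternatives tried were a pseudocount of 5 or 0.1, a stricter filter (mean FPKM of 5) or none, 3 scalings, no variance trend, a replicate block, omission of each library, and, chosen after seeing the data, genes with a low-data status kept. Some results of the lists are not reported here.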

Additional observations from a re-analysis of the deposited data

How the results depend on the processing

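The call of MCL1 was close to the threshold. It was lost, at log2 fold changes of 0.99, 0.93, 0.98, 0.90 and 0.98, with a pseudocount of 0.1 or 5, no filter, upper-quartile scaling and quantile normalization, and with a library left out the change ranged from 0.67 to 1.29. It passed under the other 5 alternatives, and over all 14 the adjusted p ran from 0.0311 to 0.208 (limma). BCL2L1 passed under 12 of 14 and BAD under 10 of 14, PMAIP1 under 4 of 13. BID, not called in the report, passed under 3 of 14 and BAX under 0 of 14. Members called higher numbered 1 instead of 2 with a pseudocount of 0.1 or 5, no filter, upper-quartile scaling and quantile normalization, and 0 to 1 with a library left out. Members called lower numbered 1 instead of 2 with a pseudocount of 5, median-of-ratios scaling, no variance trend and the replicate block. They numbered 0 with no filter, and 3 with upper-quartile scaling and with quantile normalization. With any library left out, members called lower were fewer than in the main fit. The sign of genes near no change turned with median-of-ratios scaling (BAK1 0.04, BCL2L11 0.02) and with a library left out (BAK1 -0.23 to 0.19, BCL2L11 -0.10 to 0.03). Over all genes, 653 were higher and 231 lower with no filter, and 181 to 693 higher and 32 to 235 lower with a library left out. The sample titles give replicates 1 and 2 only a number. The difference between replicates correlated at 0.002 between groups across genes. This value cannot show whether libraries of the same number were handled together. With the replicate block 532 genes were lower instead of 920, and MCL1 had 0.98 with an adjusted p of 0.0477 (limma). No member transcript was called under any alternative run for them. The fits with a library left out held fewer libraries, and the fit with no filter held more genes. The cause of the lost calls was not tested.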

Other observations

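The confidence bounds that Cufflinks gives with each value did not always enclose it. BAD NM_032989 lay outside its own bounds in all 4 libraries, with 17.1 FPKM against bounds of 9.46 and 13.4 in biotin replicate 1 and 29.3 FPKM against 14.5 and 20.0 in control replicate 1. BAK1 and PMAIP1 lay outside in 1 library each. Over all rows above 0 this held for 23.7% and 24.1% in the biotin libraries and 22.2% and 23.3% in the controls.

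BAX rows changed places between libraries. Beside NM_001291431, biotin replicate 2 and control replicate 1 were assigned NM_001291428 and NM_001291430, and biotin replicate 1 and control replicate 2 were assigned NM_001291429 and NM_138761. NM_138763 was above 0 in control replicate 2 alone, at 6.81 FPKM. The sums for BAX differed by far less within the control group, at 16.11 and 16.45 FPKM.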
